A study of Zea mays with 6 samples.

Results

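The genes described here encode the enzymes of glycolysis and of ethanol fermentation in the maize kernel, from hexokinase and fructokinase through pyruvate kinase to pyruvate decarboxylase and alcohol dehydrogenase. They were chosen by words: every protein-coding row of the deposited count table whose description names one of these enzymes was taken, apart from cinnamyl alcohol dehydrogenases, and alcohol dehydrogenase had to carry the number 1 or 2. This gave 140 genes of 49785 rows, of which 34337 are protein-coding. By their full descriptions, 112 of the 140 were taken as the enzyme itself, and 28 matched the words but were set apart. Some of the 28 have another function, such as enolase-phosphatase or 2-alkenal reductase. Others, 9 phosphoglycerate mutase-like and 2 fructokinase-like genes, have a -like or family name that does not settle their function. RNA came from maize (Zea mays) kernels collected 13 days after pollination from field-grown plants, with the pericarp, the maternal outer wall, peeled off. The 3 WT libraries are labelled wild-type and the 3 shrek1 libraries Shrek1-/-, with no other allele, treatment or inbred background given for either group. The shrek1 mutation is known for shrunken kernels and affects a WD-repeat protein of ribosomal RNA processing. Its gene was not matched to a row of the table, so the genotype labels were not checked with it.

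Glycolysis splits a hexose into a pair of pyruvate molecules and yields ATP and NADH. Plants run it in the cytosol and, in part or whole, in plastids, with separate nuclear genes for each compartment, and the cytosol has a second, pyrophosphate-dependent phosphofructokinase beside the ATP-dependent one. In ethanol fermentation, pyruvate decarboxylase makes acetaldehyde and alcohol dehydrogenase reduces it to ethanol, which returns NADH to NAD. The interior of the cereal endosperm is known to be low in oxygen, and maize adh1 and several genes of glycolysis are classical low-oxygen response genes of the seedling root.

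The libraries held 17145006 to 20288565 counts, and 3 counts in 1 library correspond to 0.142 to 0.185 CPM (counts scaled by TMM to a common library size). Levels within a gene are given as CPM and levels between genes as the deposited FPKM, which is per gene length. The 14 embryo marker genes, such as oleosins, summed to 7792 to 9830 CPM in WT and 120 to 140 CPM in shrek1, and all 13 tested fell. The 9 endosperm marker genes summed to 84113 to 113245 CPM in WT and 52280 to 70106 CPM in shrek1, with 5 higher and 3 lower. The 5 higher were o2, pbf1, sh2, bt1 and bt2. The 3 lower were the zein genes gz16, gz50 and bz15, and the zein gene gz27 did not pass. Most of the sum was zein, with mean CPM in WT and shrek1 of 37049 and 28234 for gz27, and 31841 and 12348 for bz15. The 6 basal endosperm transfer layer marker genes found summed to 23.2 to 41.5 CPM in WT and 33.5 to 79.7 in shrek1. They varied among the shrek1 libraries, with betl2 at 21.1, 9.95 and 2.29 CPM and mrp1 at 9.44, 6 and 26.9. The 3 aleurone marker genes found had 1 higher and 2 lower. The part of these tissue differences in the results below was not tested, and in whole kernels fewer cells of a type and less RNA per cell cannot be told apart. No label says that libraries of a genotype are separate plants or ears, so the p-values measure the spread between these libraries, which may be technical.

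The comparison asked which glycolytic and fermentative transcripts differ between shrek1 and WT kernels. The most abundant gene of each step from glucose-6-phosphate isomerase to enolase, with the pyrophosphate-dependent enzyme at the phosphofructokinase step, rose in shrek1, and gpc4 and gpc3 of glyceraldehyde-3-phosphate dehydrogenase had the highest log2 fold changes of all tested members, 3.05 and 2.73. Of tested genes, 8 of 9 for ATP-dependent phosphofructokinase, 4 of 5 for fructokinase, 2 of 2 for plastid-labelled triosephosphate isomerase and 5 of 6 for plastid-labelled pyruvate kinase fell. The most abundant fructokinase gene, frk2, did not pass the test, and neither did gpc1. Of the 140 genes, 16 had no count in any library and 107 passed the filter on low counts. By edgeR's quasi-likelihood test at an adjusted p under 0.05, 37 of the 107 (34.6%) were higher in shrek1, 50 (46.7%) were lower and 20 did not pass, so that 81.3% passed. Across all 22681 genes tested, 64.4% passed, 32.0% higher and 32.4% lower, and the difference between these shares was not tested. At least 2-fold, 19 of the 107 rose and 36 of the 107 fell, where 3213 (14.2%) and 4535 (20.0%) of all 22681 genes tested did. CPM did not overlap between genotypes for 88 of the 107, against 70.0% of all genes tested. Of the 85 tested genes that are the enzyme by description, 33 rose and 38 fell. The median of their log2 fold changes was -0.01, equal to that over all genes tested. A gene that passes the filter through 1 genotype alone has to differ, so these counts describe the tested genes and not all 140.

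Of the 21 tested enzyme genes with the highest mean FPKM over all libraries, 19 rose, none fell and 2 did not pass, whereas of the other 64, 14 rose and 38 fell. That ranking uses the shrek1 libraries too. When genes were ranked by WT FPKM alone, 17 of the top 21 rose, 1 fell and 3 did not pass. Over all genes tested, of any level, 32.0% rose and 32.4% fell. Other genes of similar level were not compared, so the contrast by level was not shown to be particular to these enzymes. The summed FPKM of all 112 enzyme genes was 10854 ± 467 in WT and 30686 ± 687 in shrek1 (SD, n = 3 each), and their share of all counts was 2 ± 0.0185% and 4.34 ± 0.0401%. Of 14 enzyme steps, the summed FPKM of shrek1 lay above WT without overlap in 10, below in 3, and overlapped in 1, pyruvate kinase. These totals carry the library scaling of the deposited FPKM. As a share of total counts, adh1, nearly all of the alcohol dehydrogenase step, overlapped.

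**Figure D1:**
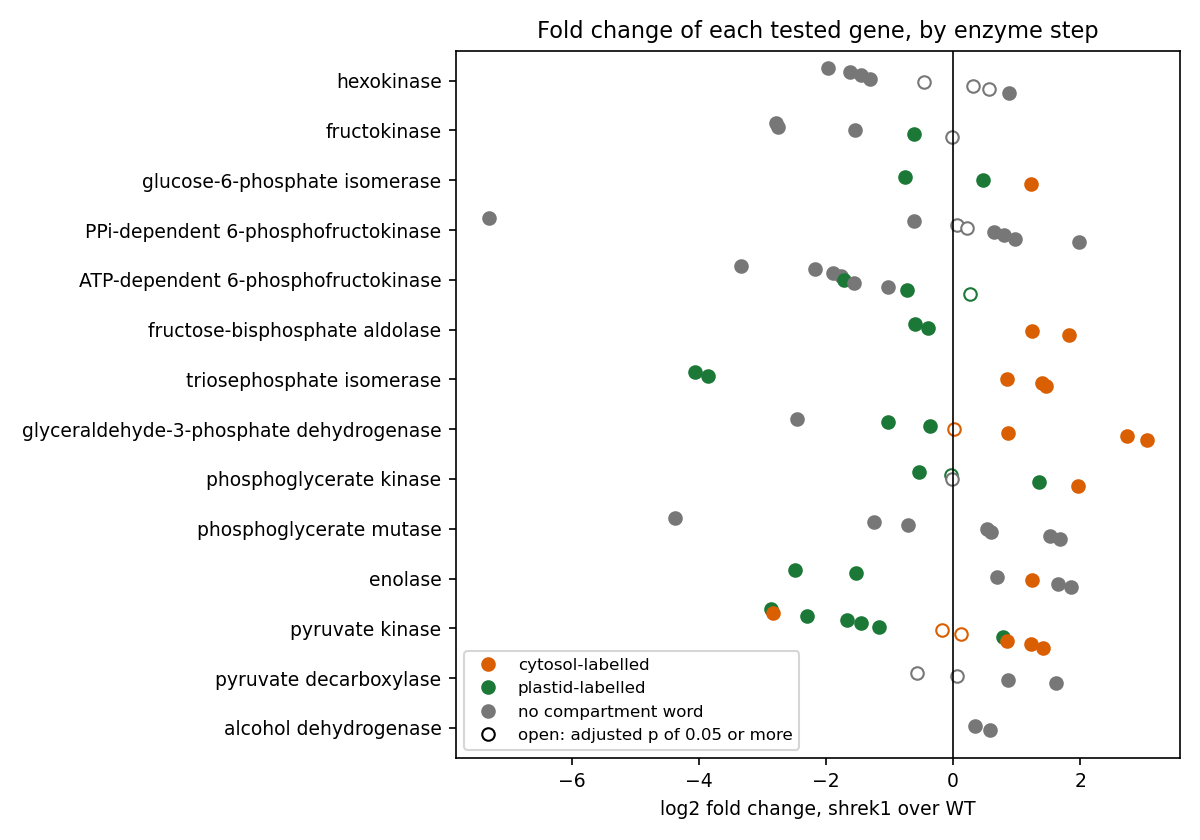
Log2 fold change of shrek1 over WT (x axis) for each of the 85 tested enzyme genes, 1 point a gene, by enzyme step (rows, in pathway order), coloured by the compartment word in the description and filled where the adjusted p was under 0.05. Cytosol-labelled points lie mostly right of 0 and plastid-labelled points mostly left, with gpc4 at 3.05 and plastid triosephosphate isomerase at -4.06.

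Hexokinase and fructokinase phosphorylate glucose and fructose on entry. Their summed FPKM was lower in shrek1, at 236 ± 62.6 in WT and 144 ± 11.7 in shrek1 for 9 hexokinase genes, and 207 ± 24 and 154 ± 24.2 for 5 fructokinase genes. Of 8 tested hexokinase genes, 4 fell and 1 rose, where 32.4% and 32.0% of all genes tested did. The most abundant, LOC100192075 (chromosome 3), stood at 442, 219 and 156 CPM in WT and 74.7, 62.7 and 70.7 in shrek1. WT replicate 1 was more than the sum of the other two WT libraries, and the lowest WT value still exceeded each shrek1 value (log2 fold change -1.97 ± 0.38, SE, adjusted p = 0.0032). LOC103650768 rose from 92.6, 47.9 and 55.4 to 128, 121 and 112 CPM (0.88, adjusted p = 0.0114), and its share of hexokinase FPKM went from 12.4 ± 1.46% to 37.3 ± 0.528%. Of 5 fructokinase genes, 4 fell. The exception was frk2 (LOC542108), the most abundant, with 209, 257 and 207 CPM in WT and 271, 205 and 193 in shrek1, which overlapped (-0.01, adjusted p = 0.963). The gene frk1 (LOC542107, chromosome 3, 173098205 to 173101023) fell from 44.7, 49.9 and 46.6 CPM to 5.56, 7.66 and 7.37, a log2 fold change of -2.78 ± 0.14 (adjusted p = 1.14e-07).

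Glucose-6-phosphate isomerase converts glucose-6-phosphate to fructose-6-phosphate. The cytosol-labelled gene LOC542313 (chromosome 1) had 439, 305 and 312 CPM in WT and 813, 734 and 907 in shrek1, so that every shrek1 library exceeded every WT one (1.22 ± 0.15, adjusted p = 5.82e-05). Of the plastid-labelled isomerase genes, LOC100281592 rose (log2 fold change 0.47) and LOC100382805 fell (-0.76).

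At the phosphofructokinase step, which commits hexose phosphate to fructose-1,6-bisphosphate, genes of the pair of enzyme types had different counts of calls. The 8 pyrophosphate-dependent genes summed to 626 ± 32.6 FPKM in WT and 1022 ± 45 in shrek1, with 4 higher and 2 lower. The 12 ATP-dependent genes summed to 65.8 ± 7.31 and 24.7 ± 1.17 FPKM, and of 9 tested, 8 fell and none rose. The shares over all genes tested were 32.0% higher and 32.4% lower. The difference between the types was not tested, and the division was made from the descriptions after values had been seen. The most abundant pyrophosphate-dependent gene, beta subunit gene LOC100282190 (chromosome 9), had 397, 363 and 332 CPM in WT and 692, 683 and 775 in shrek1 (0.98 ± 0.11, adjusted p = 1.97e-05). The beta subunit carries the catalytic site and the alpha subunit is regulatory. The alpha subunit gene LOC101027252 rose from 27.6, 22.8 and 15.6 CPM to 106, 87.1 and 68.4 (1.99 ± 0.23, adjusted p = 0.000163). Another alpha subunit gene, LOC103632535 (chromosome 7), went the other way. It had 619 counts over the WT libraries and 3 over the shrek1 libraries, a normalised ratio of 178 with a 95% counting interval of 60.5 to 863. The 3 counts were 2, 0 and 1 in the shrek1 libraries, and without shrek1 replicate 1 the fitted log2 fold change moved from -7.30 to -8.14. Among ATP-dependent genes, LOC100281585 (chromosome 3) fell from 7.64, 12.9 and 12.5 CPM to 1.1, 0.865 and 1.26 (-3.34 ± 0.27, adjusted p = 2.58e-06), and LOC103630633, with the highest WT level of the type in FPKM, fell from 40.3, 42.6 and 50.8 to 11.2, 10.4 and 14.3 CPM (-1.89).

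Aldolase splits fructose-1,6-bisphosphate into the triose phosphates, and triosephosphate isomerase interconverts them. Aldolase summed to 1443 ± 60.5 FPKM in WT and 4109 ± 392 in shrek1, nearly all of it from the cytosol-labelled genes ald1 and LOC100272913. The gene ald1 (LOC542261, chromosome 3) had 1226, 1179 and 1122 CPM in WT and 4239, 3721 and 4457 in shrek1, every shrek1 library lying above all WT libraries (1.82 ± 0.12, adjusted p = 6.44e-07). LOC100272913 rose (log2 fold change 1.24), and the plastid-labelled LOC100502020 and LOC100286050 fell (-0.40 and -0.60). Cytosol-labelled triosephosphate isomerase gene LOC100272481 (chromosome 3) rose from 605, 584 and 580 CPM to 1611, 1707 and 1593 (1.47 ± 0.10, adjusted p = 6.82e-07), and the other 2 tested cytosol-labelled genes rose too (1.40 and 0.85). Both tested plastid-labelled isomerase genes fell to low levels. LOC100191222 (chromosome 7, 149671226 to 149675046) had 17.7, 27.2 and 21.9 CPM in WT and 1.16, 1.24 and 1.6 in shrek1 (-4.06 ± 0.22, adjusted p = 2.15e-07). LOC100193000 (chromosome 2, 202352897 to 202356726) had 17.4, 20.6 and 21.3 CPM in WT and 0.81, 0.927 and 2.34 in shrek1 (-3.85 ± 0.31, adjusted p = 4.75e-06), and without shrek1 replicate 3, the highest of that group, the value was -4.49.

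Glyceraldehyde-3-phosphate dehydrogenase, which makes the NADH of glycolysis, had the highest summed FPKM of all steps, at 2916 ± 182 in WT and 13262 ± 628 in shrek1, a ratio of 4.55. The 4 cytosolic genes gpc1 to gpc4 behaved differently. The gene gpc4 (LOC100037774, chromosome 5, 185247723 to 185251565) had 1476, 1379 and 1240 CPM in WT and 11232, 11710 and 11079 in shrek1, which is 8.31-fold (3.05 ± 0.14, adjusted p = 7.87e-08). Ranked by mean FPKM among all rows, gpc4 was at place 41 in WT and place 6 in shrek1. The gene gpc3 (LOC542333, chromosome 4, 138102674 to 138105904) had 527, 529 and 540 CPM in WT and 3422, 3800 and 3336 in shrek1 (2.73 ± 0.12, adjusted p = 6.44e-08). The gene gpc2 (LOC542718) rose by less, from 796, 940 and 892 CPM to 1551, 1685 and 1568 (0.87 ± 0.11, adjusted p = 5.48e-05). The gene gpc1 (LOC542367) had 812, 1043 and 956 CPM in WT and 913, 1004 and 906 in shrek1, and the groups overlapped (0.01, adjusted p = 0.97). The gpc genes are close relatives and how reads shared between them were counted is not given, so the split among them is uncertain. The plastid forms of the glycolytic type, LOC100282981 and LOC100191900, fell (-0.36 and -1.02), and so did LOC542583, the non-phosphorylating enzyme, which bypasses phosphoglycerate kinase (-2.46). The groups overlapped for LOC100282981, at 171, 221 and 210 CPM in WT and 153, 172 and 145 in shrek1 (adjusted p = 0.0192). The other 6 plastid-labelled genes held at most 1 count in any library.

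Phosphoglycerate kinase, the first ATP-making step, summed to 360 ± 12 FPKM in WT and 1325 ± 57.1 in shrek1, and the cytosol-labelled gene LOC100274579 (chromosome 5) gave 343 and 1309 of it. This gene had 824, 781 and 747 CPM in WT and 2919, 3034 and 3205 in shrek1, with no overlap (1.96 ± 0.11, adjusted p = 2.58e-07). Phosphoglycerate mutase moves the phosphate from carbon 3 to carbon 2 of glycerate, and its most abundant gene LOC100381658 (chromosome 3) rose from 360, 375 and 374 CPM to 1147, 1157 and 1264 (1.69 ± 0.10, adjusted p = 3.05e-07). Of 7 tested mutase genes, 4 rose and 3 fell, where 32.0% and 32.4% of all genes tested did. Enolase, which makes phosphoenolpyruvate, summed to 1712 ± 78 FPKM in WT and 4925 ± 438 in shrek1. The gene eno1 (LOC732811, chromosome 9, 23954660 to 23959039) had 1943, 1999 and 1910 CPM in WT and 6420, 6795 and 7987 in shrek1 (1.86 ± 0.13, adjusted p = 9.14e-07), and its share of enolase FPKM went from 68.5% to 84.5%. The gene eno2 (LOC542316) rose from 677, 709 and 701 to 1130, 1194 and 1065 CPM (0.70). An enolase 1-like gene, LOC103641594, counted here with the enzymes, rose from 5.04, 4.81 and 5.61 CPM to 13.1, 16.5 and 18.9 (1.65). Its listed length is 389 bases against 1663 for eno1, and whether its counts hold reads of eno1 was not tested. The plastid-labelled enolase genes fell, LOC100283280 by a log2 fold change of -1.52 and LOC100274470 of -2.49.

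**Figure D2:**
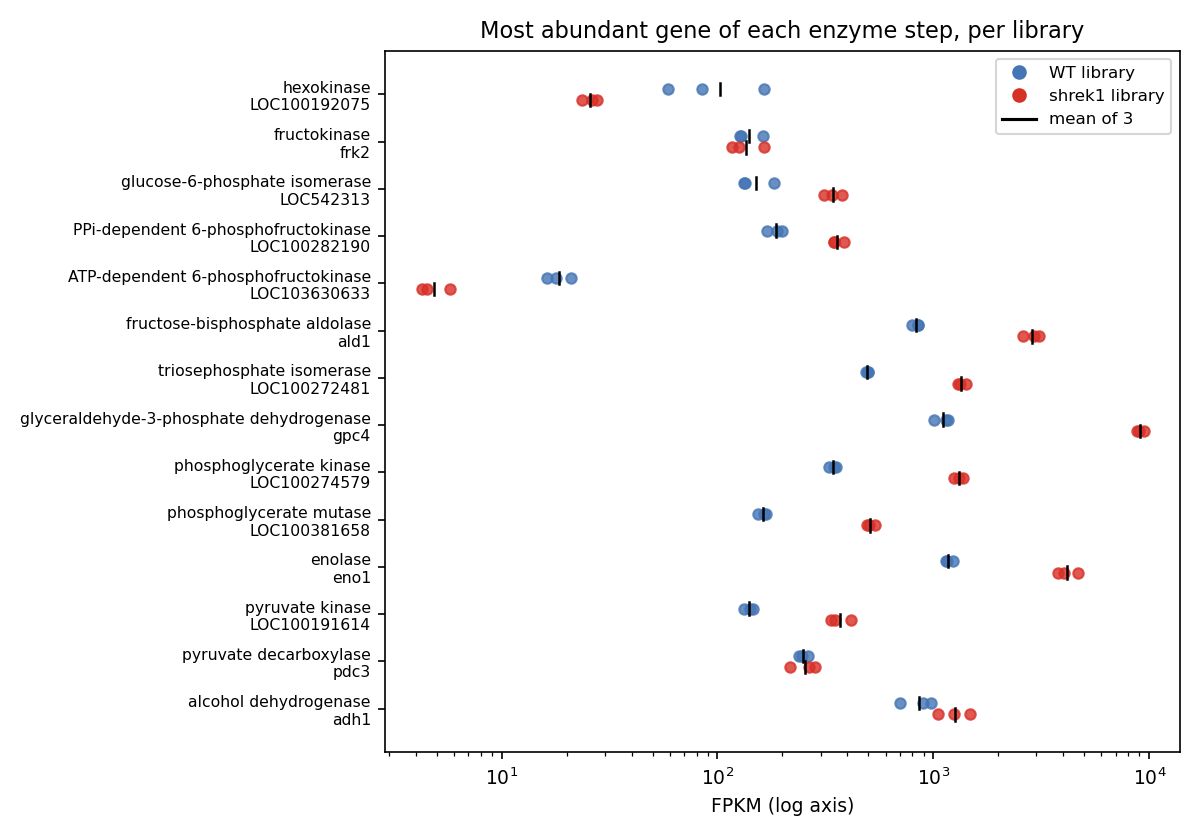
FPKM per library (x axis, log scale) of the gene with the highest mean CPM in each of the 14 enzyme steps (rows), with WT libraries in blue, shrek1 libraries in red and a black line at the mean of 3. The widest gap is that of gpc4, at a mean of 1107 FPKM in WT and 9034 in shrek1, while frk2 and pdc3 overlap.

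Pyruvate kinase makes pyruvate and ATP and was the step whose total did not separate the genotypes, at 625 ± 22.7 FPKM in WT and 666 ± 60.6 in shrek1. Its composition did. The 6 cytosol-labelled genes summed to 290 ± 1.76 and 535 ± 67.6 FPKM, and the 6 plastid-labelled genes to 334 ± 24.5 and 131 ± 8.62, so the plastid-labelled share was 53.5 ± 1.96% in WT and 19.8 ± 2.83% in shrek1. The cytosol-labelled LOC100191614 (chromosome 4) had 279, 260 and 248 CPM in WT and 664, 636 and 795 in shrek1 (1.41 ± 0.11, adjusted p = 2.11e-06), and its share of the step was 22.5% and 55.1%. Another cytosol-labelled gene, LOC100283452 (chromosome 2), fell from 77.6, 93.2 and 97.2 CPM to 13.8, 8.78 and 14.7 (-2.84 ± 0.18, adjusted p = 1.5e-06). It was the 1 cytosol-labelled enzyme gene of the 18 tested that fell. Of the plastid-labelled genes, 5 fell and 1 rose, where 32.4% and 32.0% of all genes tested did. LOC606466 (chromosome 3) had 16.5, 15.2 and 15.6 CPM in WT and 2.32, 1.55 and 2.57 in shrek1 (-2.87 ± 0.20, adjusted p = 7.2e-07), and LOC100273990, the most abundant of them in FPKM, fell from 331, 327 and 317 to 158, 142 and 133 CPM (-1.17).

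**Figure D3:**
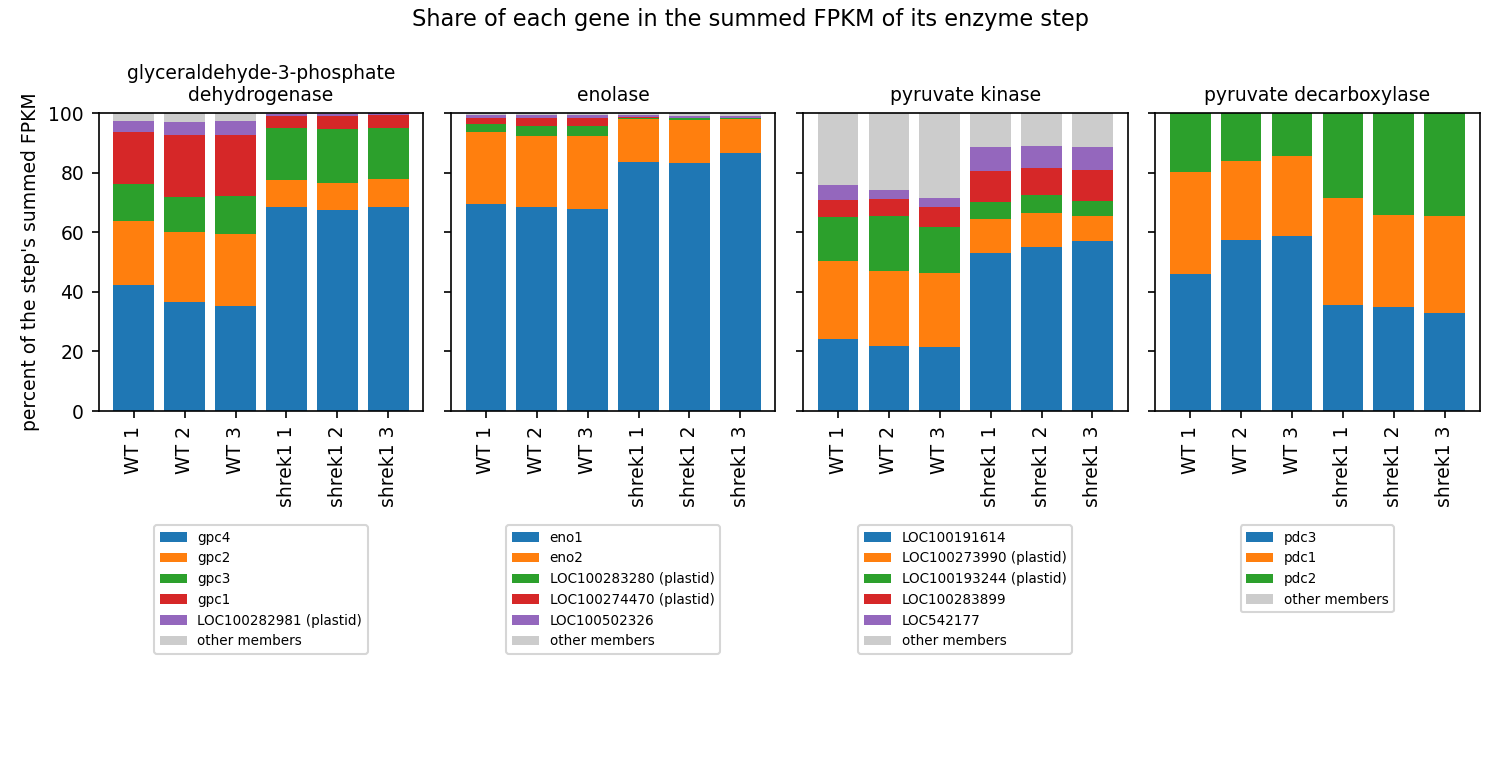
Share of each gene in the summed FPKM of its enzyme step (y axis, percent) in each of the 6 libraries, as stacked bars, for glyceraldehyde-3-phosphate dehydrogenase, enolase, pyruvate kinase and pyruvate decarboxylase, with genes of smaller share in grey. The share of gpc4 is 38.1 ± 3.66% in WT and 68.1 ± 0.688% in shrek1 (SD, n = 3 each), and that of gpc1 is 19.5% and 4.23%.

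Of the fermentation genes, 2 of 4 tested pyruvate decarboxylase genes and both alcohol dehydrogenase genes rose, and none fell. Over all genes tested, 32.0% rose and 32.4% fell, and so few genes were not tested against these shares. Pyruvate decarboxylase summed to 467 ± 64.2 FPKM in WT and 740 ± 104 in shrek1, and alcohol dehydrogenase to 885 ± 138 and 1294 ± 220. The gene pdc2 (LOC542651) had 230, 152 and 123 CPM in WT and 490, 455 and 603 in shrek1, with no overlap (1.62 ± 0.23, adjusted p = 0.000393). The gene pdc1 (LOC542376) had 405, 260 and 239 CPM in WT and 632, 417 and 589 in shrek1. The highest WT library and the lowest shrek1 library nearly met, and the log2 fold change was 0.86 ± 0.23 (adjusted p = 0.0114), or 0.85 with adjusted p = 0.0546 when no filter on low counts was used. As a share of total counts the pdc1 groups overlapped, with 7317 of 17145006 in WT replicate 1 and 6751 of 17308107 in shrek1 replicate 2. The gene pdc3 (LOC541919), with the highest FPKM of the decarboxylases in WT, had 607, 617 and 572 CPM in WT and 693, 527 and 652 in shrek1, which overlapped (0.06 ± 0.12, adjusted p = 0.671). In FPKM, pdc3 made up 54% of the step in WT and 34.5% in shrek1, and pdc2 16.6% and 32.3%. A further decarboxylase gene, LOC103653394, stayed under 2 CPM in every library and did not pass (adjusted p = 0.217).

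The gene adh1 (LOC542363, chromosome 1, 280590395 to 280594156) encodes alcohol dehydrogenase 1 and held 96.9% of the FPKM of the pair in WT and 97.4% in shrek1. It had 1919, 1675 and 1343 CPM in WT and 2444, 2031 and 2919 in shrek1. In CPM, every shrek1 library lay above every WT library, but the highest WT and lowest shrek1 values were close (0.58 ± 0.17, adjusted p = 0.0112). As a share of total counts the groups overlapped, with 34662 of 17145006 in WT replicate 1 and 32856 of 17308107 in shrek1 replicate 2. The gene adh2 (LOC542364, chromosome 4) had 37.5, 43.4 and 46.8 CPM in WT and 53, 51.6 and 58.7 in shrek1 (0.35 ± 0.10, adjusted p = 0.0124). Both calls depended on the scaling. With library size alone, adh1 had 0.30 (adjusted p = 0.0888) and adh2 0.06, and without WT replicate 3 adh1 had 0.40 (adjusted p = 0.0646). Without WT replicate 1, adh2 had 0.19 and did not pass.

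**Figure D4:**
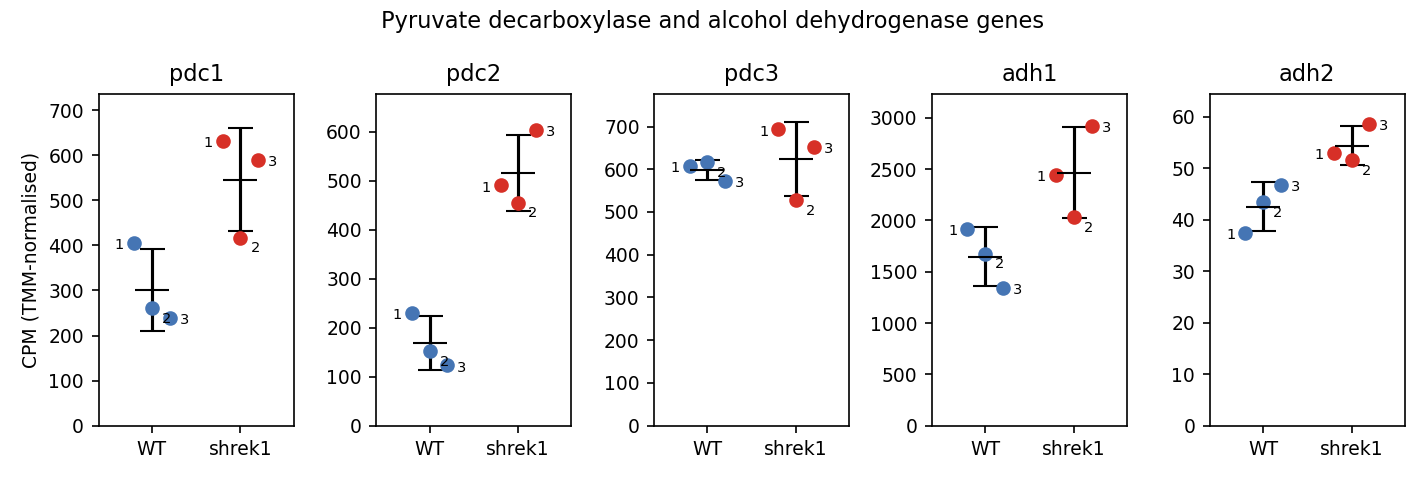
CPM (y axis, TMM-normalised, a separate scale for each gene) of pdc1, pdc2, pdc3, adh1 and adh2 in the 3 WT and 3 shrek1 libraries, with replicate numbers beside the points and black bars for the mean and SD. The pdc2 points separate widely, those of pdc1 and adh1 separate narrowly, and those of pdc3 overlap.

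Read by the compartment words in their descriptions, the enzyme genes divided. Of 22 cytosol-labelled genes, 18 were tested, and 14 (77.8%) rose, 1 (5.56%) fell and 3 did not pass, with a median log2 fold change of 1.23. Of all genes tested, 32.0% rose and 32.4% fell. Of 37 plastid-labelled genes, 23 were tested, and 3 (13%) rose, 18 (78.3%) fell and 2 did not pass, with a median of -0.76. The 53 genes with neither word, 44 of them tested, had 16 (36.4%) higher and 19 (43.2%) lower and a median of -0.01. The pair of genes whose descriptions carry both words, LOC100282981 and LOC100191900, were placed with the plastid. Summed FPKM was 5605 ± 210 in WT and 21320 ± 206 in shrek1 for the cytosol-labelled genes, and 873 ± 88.6 and 459 ± 34.8 for the plastid-labelled genes. Of 7 steps with genes of both labels, the cytosol-labelled total was higher in shrek1 without overlap in 7. The plastid-labelled total was lower without overlap in 5, of which triosephosphate isomerase went from 31.6 ± 5.51 to 1.97 ± 0.781 FPKM, and overlapped in the other 2, glucose-6-phosphate isomerase and phosphoglycerate kinase. The difference between the labels was not tested. It was not separated from a difference in level either, as the cytosol-labelled genes summed to more FPKM in both genotypes. The words come from the deposited descriptions, and not every gene carries one: eno1 and adh1 have none. The embryo markers were lower in shrek1 too, and any link between them and the compartment labels was not tested. The 31 genes for chlorophyll a-b binding proteins, markers of green tissue, summed to 22.3 to 27.4 CPM in WT and 16.6 to 19.4 in shrek1, with 14 of them at 0 in WT and 13 in shrek1.

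**Figure D5:**
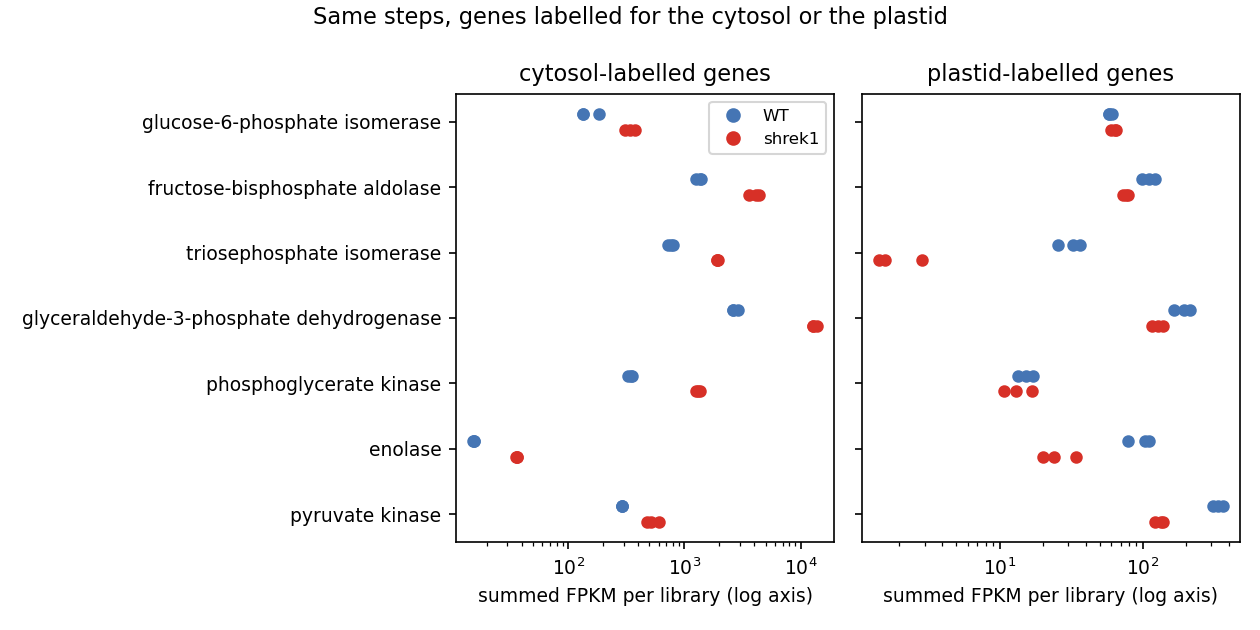
Summed FPKM per library (x axis, log scale, a separate range for each panel) of cytosol-labelled genes (left) and plastid-labelled genes (right) for the 7 steps with genes of both labels, WT in blue and shrek1 in red. Red lies right of blue in every row on the left; on the right it lies left of blue in 5 rows and overlaps in 2. Enolase on the left leaves out eno1 and eno2, whose descriptions name no compartment.

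Neighbouring steps held genes of both directions. Of 122 genes for enzymes and factors around glycolysis and fermentation, 103 were tested, and 35 (34%) rose, 43 (41.7%) fell and 25 did not pass, beside 32.0% and 32.4% of all genes tested. Their log2 fold changes had a median of -0.12. The most abundant cytosolic phosphoglucomutase gene, LOC542721, which links glucose-1-phosphate to glycolysis, rose from 413, 444 and 445 CPM to 894, 914 and 916 (1.07 ± 0.09, adjusted p = 4.11e-06). The UDP-glucose pyrophosphorylase gene LOC100191846 rose from 646, 604 and 564 to 1322, 1335 and 1473 CPM (1.19), which is the enzyme that releases glucose-1-phosphate and uses pyrophosphate. Cytosolic fructose-1,6-bisphosphatase, the enzyme opposite to phosphofructokinase, went from 28.6, 33.6 and 30.9 CPM to 0.695, 0.371 and 0.8 (LOC100284739, -5.61 ± 0.21, adjusted p = 2.51e-08). Beyond pyruvate, alanine aminotransferase LOC100193705 rose from 539 ± 51.4 to 1110 ± 12.3 CPM (1.04). Of 9 tested alanine aminotransferase genes, 4 rose and 5 fell, among the latter LOC100280822 from 38.2 ± 7.11 to 0.215 ± 0.0616 CPM (-7.42) and LOC100216685 from 14.3 ± 0.861 to 0.486 ± 0.189 CPM (-4.85), both named after their values were seen. Of 3 tested lactate dehydrogenase genes, 2 rose and none fell, with log2 fold changes from 0.10 to 2.53. The most abundant, LOC100282503, stood at 15.6, 15.2 and 15.6 CPM in WT and 24.3, 17.6 and 36.9 in shrek1 (0.77, adjusted p = 0.0192). Its call was lost with library size alone (0.47, adjusted p = 0.0666), with limma on log2 FPKM plus 1 (0.63, adjusted p = 0.0571) and without WT replicate 1, 2 or 3 (0.69, 0.75 and 0.72, adjusted p = 0.0731, 0.0611 and 0.0571). Of 24 tested genes whose descriptions name pyruvate dehydrogenase, kinases of the complex among them, 10 rose and 13 fell. Examples named after their values were seen are the chloroplastic LOC100282233 (-2.88) and the kinase gene LOC100193944 (-3.27). Mitochondrial forms went both ways, with LOC103644210 at 1.12 and LOC100272256 at -3.16. The split of this class by compartment was not counted or tested. Of 6 tested genes of aldehyde dehydrogenase family 2, 2 rose and 4 fell, with log2 fold changes from -3.47 to 2.87. The most abundant, rf2 (LOC732806), a mitochondrial enzyme that can oxidise acetaldehyde, fell from 197, 242 and 234 CPM to 37.5, 48.2 and 62.2 (-2.19). Of genes tied to oxygen in plants, the cysteine oxidases had 2 higher and 3 lower of 9 tested, with the most abundant, LOC100191278, at 0.26 (adjusted p = 0.103). Hemoglobin genes had 1 higher and 1 lower of 3 tested. The hemoglobin gene LOC100284790 rose from 31.5, 22.9 and 27.7 CPM to 51.1, 39.4 and 45 (0.73 ± 0.14, adjusted p = 0.000884), and hemoglobin 2 (LOC732720), named after its values were seen, fell from 41.1, 49.3 and 47.6 CPM to 0.232, 0.124 and 0.8 (-6.85 ± 0.31, adjusted p = 1.92e-07).

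Of the 28 genes set apart by their descriptions, 22 were tested, and 4 (18.2%) rose, 12 (54.5%) fell and 6 did not pass, beside 32.0% higher and 32.4% lower over all genes tested. The difference between these shares was not tested. A phosphoglycerate mutase-like gene, LOC100502385, fell from 20.5, 26.7 and 21.6 CPM to 3.3, 3.28 and 4.63 (-2.62, adjusted p = 7.69e-07). An enolase-phosphatase gene, LOC100194257, whose enzyme belongs to methionine salvage, had 185 counts in WT and none in shrek1, at least 17.8-fold lower against a floor of 3 counts per library.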

How the data were processed

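RNA-seq libraries of 3 WT and 3 shrek1 kernel samples, grouped by their titles, were compared. The authors deposited raw counts per gene and FPKM. The submitters' processing notes name featureCounts 1.5.0-p3 and HISAT2 2.0.5, and the libraries were directional per the labels' protocols; strand setting and genome build are not given in the sources used here. The deposited FPKM values equalled counts divided by gene length and 1 size per library, within 6.66e-05%. That size was not the total count. It lay above the total in each WT library and below it in each shrek1 library, as the TMM sizes did. Coordinates are those of the deposited table; all 140 genes were found in the reference table of Zm-B73-REFERENCE-NAM-5.0, 132 with the same start.

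The test was that of edgeR 4.0.16 under R 4.3.3 (filterByExpr, TMM, quasi-likelihood test, robust, two-sided, Benjamini-Hochberg over 22681 genes, threshold 0.05), and the script was tested on simulated data. "Rose" and "fell" mean past that threshold. SE was derived from the fold change and F and is approximate. Intervals and floors (3 counts) cover counting error only. Of the 140 genes, 16 overlap another gene. The genes and all lists were chosen with earlier results of these data known.

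Named genes are the tested gene with the highest mean CPM in each step, the 8 largest changes each way among called genes whose higher group averaged 10 CPM or more, every tested pyruvate decarboxylase and alcohol dehydrogenase gene, and the most abundant gene of each neighbouring class; other genes were named after their values were seen. Alternatives were DESeq2 1.42.0, other scalings, a gene-length offset (loess span 0.3), no filter, limma 3.58.1 on log2 FPKM plus 1 or 0.1, a replicate block and leaving out each library.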

Additional observations from a re-analysis of the deposited data

How the results depend on the processing

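Under DESeq2, other scalings, a gene-length offset, no count filter, limma on FPKM and the replicate block, 31 to 44 of the 140 genes were higher and 44 to 53 lower. Leaving out each library in turn gave 35 to 37 and 46 to 50. The cytosol-labelled genes had 14 higher under every setting and 1 lower, except 2 with library size alone; plastid-labelled genes had 15 to 18 lower. Deviations of same-numbered libraries from their group means correlated at 0.096, -0.0493 and 0.028, and those of differently numbered ones at -0.0963 to 0.0596. With 3 libraries a group this cannot show whether the numbers pair samples, and the labels name no pairing. The replicate block gave 37 higher and 51 lower. Scaling moved the median log2 fold change of all genes to -0.30 (library size alone), -0.15 (upper quartile) and 0.19 (length offset), with cytosol-labelled medians of 0.94, 1.09 and 1.48 and plastid-labelled medians of -1.05, -0.90 and -0.51. Higher genes were then 34%, 42.3% and 60.5% of all calls, against 49.7%. Values near 0 changed sign, and the cause was not tested. Over left-out libraries, pdc3 (LOC541919) ranged from -0.03 to 0.18, frk2 (LOC542108) from -0.16 to 0.10 and LOC100856973 (6-phosphogluconate dehydrogenase) from -0.13 to 0.16. The gene pdc3 had -0.23 with library size alone, -0.08 with upper quartile, and was called at 0.35 under the length offset. The gene frk2 had 0.17 with the length offset. LOC100191278 had -0.02 with library size alone. LOC100856973 had -0.22 with library size alone and -0.07 with upper quartile. Depth limits genes near 3 counts per library.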

Other observations

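Genes of other biotypes carry the same enzyme words. Of 47 such rows, 25 had no count in any library and 6 were tested, of which 2 rose and 2 fell. A phosphoglycerate mutase pseudogene, LOC103630032, rose from 39.9 to 116 CPM, a log2 fold change of 1.54 ± 0.08 (SE). Whether its counts hold reads of the intact mutase genes was not tested.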
